A study of Mus musculus with 2 samples.

Results

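Granzymes, perforin and the serpin Serpinb9b were followed through the single cells of 2 tumours. The 10 genes were Gzma, Gzmb, Gzmc, Gzmd, Gzme, Gzmf, Gzmg, Gzmk, Prf1 and Serpinb9b, chosen by symbol, and all 10 were found among the 56941 genes of both count tables. The tumours grew under the skin of C57BL/6 mice, whose immune system is intact, from MC38, a mouse line labelled as colon adenocarcinoma. A pool of these cells had been transduced by lentivirus with SPP1, which encodes the secreted glycoprotein osteopontin, or with a control vector. From day 7 all mice received anti-PD-1, which blocks a brake on T cells, with 2 injections per week of 10 mg/kg over 2 weeks. One tumour from 1 mouse stands for each group, and the labels name no sort of immune cells, so every difference below is one between 2 libraries, with no replicate check and no test across animals.

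The library labelled SPP1 held 14029 barcodes and 164599332 unique molecular identifiers (UMIs, counts of single transcripts), and the library labelled vector held 14317 barcodes and 164247003 UMIs. The kept cells, after a quality filter and without predicted doublets, numbered 13625 and 13946. Of the barcode sequences, 93 occurred in both libraries. T and NK-like cells were few: 119 in the library labelled SPP1 and 181 in the library labelled vector. They were clustered without the 10 genes and without the other genes of the pathway given below, so that the clusters do not rest on the values of those genes. The naming of clusters did use Eomes, Ctla4 and Tcf7 of the pathway lists, and the prediction of doublets left none of these genes out. Spp1 and Ctsg, described below, were not left out of the clustering. The NK-like cells numbered 31 and 36, the CD8 T-like cells 48 and 68, the regulatory T-like cells 13 and 31, and the CD4 T-like cells 8 and 17, while 19 and 29 T and NK-like cells took no narrower name. The mouse gene Spp1 stood at 249 CPM (UMIs per 1000000 UMIs of the same cells) in the library labelled SPP1 and at 285 in the library labelled vector over all kept cells, so it does not tell the libraries apart in the direction of their labels. Intervals in brackets are 95% intervals that cover counting error only.

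Killer lymphocytes store granzymes, a family of serine proteases, in granules together with perforin, a protein that forms pores in the membrane of the cell under attack. Through perforin the granzymes reach the cytosol, where granzyme B cuts after aspartate and can activate caspases and Bid. Serpins of the Serpinb9 family are inhibitors found in the cytosol, and Serpinb9 itself blocks granzyme B and shields killer cells from their own protease. In mice, naive CD8 T cells carry little of these transcripts until they are activated, whereas resting NK cells already transcribe several of them.

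In the RefSeq gene order, Gzme, Gzmd, Gzmg, Gzmf, Gzmc and Gzmb lie side by side on chromosome 14 with only Gzmn among them, and Ctsg, which encodes cathepsin G, comes next to Gzme. Gzma and Gzmk are neighbours on chromosome 13, Serpinb9b lies elsewhere on chromosome 13 beside Serpinb9, and Prf1 is on chromosome 10. The promoters of Gzmc to Gzmg, taken from 250 bases before to 50 after the start site (RefSeq, GRCm38.p6), were 81.3% to 93.7% identical in pairs, with Gzmd and Gzme the closest pair. Between Gzmb and each of these 5 genes the identity was 55.3% to 59.3%, inside the 54.0% to 61.0% of all pairs not within the 5. Every one of the 5 promoters held one shared run of 20 bases, which began 45 to 70 bases before the start site. Only these 5 of 27025 promoters in the table held it on either strand. The 100 bases before the start site are shown because these 5 genes are the ones found together in single cells below, with Gzmb for contrast. The shared run is in capitals. All lie on the minus strand of chromosome 14 and read 5′ to 3′ toward the gene, at chr14:56234658-56234757 (Gzmc), chr14:56132594-56132693 (Gzmd), chr14:56120626-56120725 (Gzme), chr14:56211408-56211507 (Gzmf), chr14:56159580-56159679 (Gzmg) and chr14:56262335-56262434 (Gzmb).
Gzmc: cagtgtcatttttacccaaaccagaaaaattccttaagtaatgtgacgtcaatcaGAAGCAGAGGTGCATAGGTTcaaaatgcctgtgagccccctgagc
Gzmd: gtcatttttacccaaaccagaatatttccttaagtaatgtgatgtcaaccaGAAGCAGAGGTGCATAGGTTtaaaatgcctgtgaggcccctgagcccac
Gzme: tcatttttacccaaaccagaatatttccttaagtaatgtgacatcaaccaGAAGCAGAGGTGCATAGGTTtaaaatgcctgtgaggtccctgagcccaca
Gzmf: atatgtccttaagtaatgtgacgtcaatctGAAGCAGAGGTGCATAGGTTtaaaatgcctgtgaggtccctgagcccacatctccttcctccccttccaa
Gzmg: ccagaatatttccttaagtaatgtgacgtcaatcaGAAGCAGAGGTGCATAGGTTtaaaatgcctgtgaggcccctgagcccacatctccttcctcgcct
Gzmb: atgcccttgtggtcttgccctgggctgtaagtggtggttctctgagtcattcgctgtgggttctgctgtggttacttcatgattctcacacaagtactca

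A Runx core motif, TGTGGT on either strand, was present in 8 of the 10 promoters, all but those of Gzmk and Serpinb9b, and in 16.9% of the 27025 promoters of the same length. Of these 8, 5 are the promoters of Gzmc to Gzmg, which are so alike that they do not count as separate cases. AP-1 (TGANTCA) and STAT (TTCNNNGAA) matches were found in that of Gzmb alone among the 10, against 7.93% and 8.47% of all promoters. An Ets match (CCGGAA) was in that of Gzmk alone and an NFAT core (TGGAAA) in that of Gzma alone, against 15.2% and 21.5%. T-box (AGGTGTGA) and TATA box (TATAAA) matches were in none of the 10, against 1.27% and 14.2%. Such matches describe letters and not bound sites. The transcripts of Gzmc to Gzmg are also alike, at 72.6% to 90.4% identity in pairs (GENCODE M21), but few stretches are the same. Of the 90-base windows along them, 2.17% of Gzmd, 1.59% of Gzmg, 0.967% of Gzme and none of Gzmc and Gzmf were found in another granzyme. How reads that match several of them were counted is not given in the sources used here.

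Summed over the 10 genes, a sum in which Gzmc to Gzmg weigh most, NK-like cells held the most UMIs of any class in both libraries. They had 59.0% (58.2 to 59.9) of the 10 genes' UMIs among kept cells of the library labelled SPP1 and 33.1% (32.2 to 34.1) of those of the library labelled vector, although they were only 31 and 36 cells. Single genes differed from the sum. In the library labelled vector, CD8 T-like cells had more UMIs than NK-like cells of Gzmb (853 and 383) and of Prf1 (134 and 125). Only 3 of 31 and 2 of 36 NK-like cells had no UMI of any of the 10 genes. The clusters were named from marker lists that hold Ncr1 for NK cells and Cd8a, Cd8b1 and Cd3e for CD8 T cells. Their counts thus describe the naming and are no separate support for it. Ncr1, which encodes the NK receptor NKp46, had 27 and 51 UMIs in NK-like cells and none in CD8 T-like cells of either library. Cd8a and Cd8b1 had none in NK-like cells, and Cd3e, a chain of the T cell receptor complex, had 0 and 1.

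Gzmb was the broadest of the granzymes. It was seen in 80.6% (62.5 to 92.5) of the NK-like cells of the library labelled SPP1 and 69.4% (51.9 to 83.7) of those of the library labelled vector. In CD8 T-like cells the shares were 56.2% and 57.4%, and in regulatory T-like cells 69.2% and 45.2%. Macrophage/monocyte-like cells, a class not known for Gzmb, gave 1.25% and 0.481% although their median depth of 7792 and 8078.5 UMIs was above the 3609 and 4872.5 of NK-like cells. Thinned to 1000 UMIs per cell, the NK-like shares were 69.2% and 60% and the CD8 T-like shares 41.3% and 43.8%. In both classes the libraries' shares lay within each other's counting intervals.

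Perforin was found in most NK-like cells and in over 50% of the CD8 T-like cells. Prf1 was detected in 67.7% (48.6 to 83.3) and 66.7% (49.0 to 81.4) of the NK-like cells, and in 60.4% (45.3 to 74.2) and 52.9% (40.4 to 65.2) of the CD8 T-like cells. The T and NK-like cells without a narrower name had 21 and 74 UMIs of Prf1, or 208 and 373 CPM, and regulatory T-like cells had it in 1 of 13 and 1 of 31 cells. Gzma, a protease that cuts after basic residues, was close to an NK gene here. It was found in 41.9% and 38.9% of the NK-like cells but in 0 of 48 and 3 of 68 CD8 T-like cells, where 0 of 48 allows a share of cells with a UMI of up to 6.25% by the limit of 3 counts.

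The genes Gzmc to Gzmg, known from mice and other rodents and not from humans, were found in a larger share of NK-like than of CD8 T-like cells. At least 1 of the 5 was detected in 74.2% (55.4 to 88.1) and 63.9% (46.2 to 79.2) of the NK-like cells, against 27.1% (15.3 to 41.8) and 23.5% (14.1 to 35.4) of the CD8 T-like cells. Summed, they reached 37922 CPM (37033 to 38828) in NK-like cells of the library labelled SPP1 and 13503 CPM (12955 to 14068) in those of the library labelled vector. In CD8 T-like cells the sums were 750 CPM (633 to 883) and 2368 CPM (2175 to 2574). The T and NK-like cells without a narrower name stood at 2530 and 6689 CPM. Regulatory T-like cells gave 2 UMIs of the 5 genes in each library, and CD4 T-like cells none. None of the 10 genes had a UMI in the 25 and 48 dendritic-like cells, which by the same limit allows shares of cells with a UMI of up to 12% and 6.25%. In the large compartment described below, at median depths of 12151 and 12478 UMIs, 2.66% and 1.18% of cells had a UMI of Gzmc to Gzmg, and the part of free RNA in these shares was not tested.

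**Figure D1:**
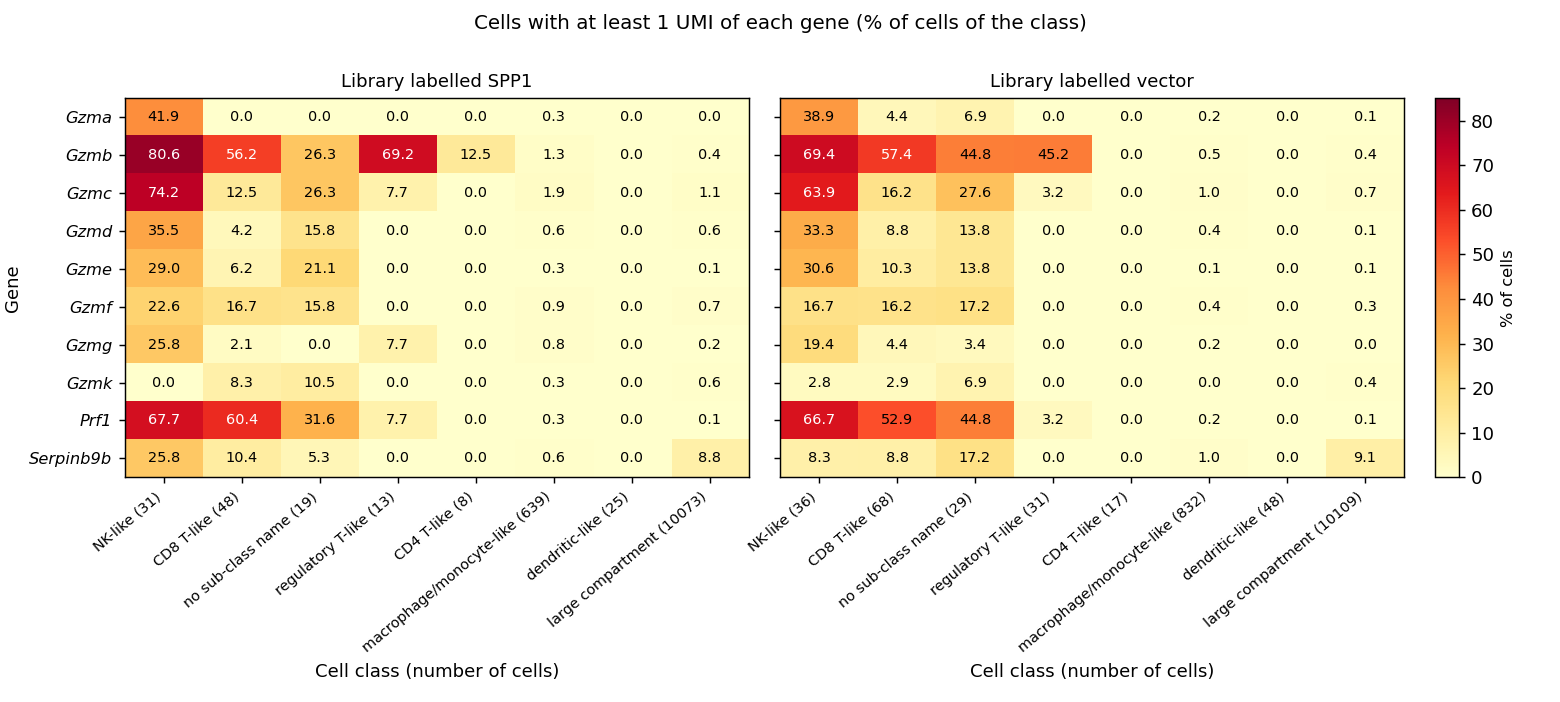
Share of cells with at least 1 UMI of each gene (rows) by cell class (columns, number of cells in brackets), in the library labelled SPP1 on the left and the library labelled vector on the right; colour and printed numbers are percent of cells. Gzma, Gzmc and Gzmd are seen in larger shares of NK-like than of CD8 T-like cells in both libraries, regulatory T-like cells carry Gzmb almost alone, and Serpinb9b is seen in 8.79% and 9.07% of the large compartment.

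Gzmc to Gzmg were carried by a handful of cells. In the library labelled SPP1, the 3 highest of 119 T and NK-like cells held 71.6% of the UMIs of the 5 genes, and in the library labelled vector the 3 highest of 181 held 44.1%. The highest cell of the library labelled SPP1 was NK-like, with 881 UMIs of Gzmd, 757 of Gzmf, 495 of Gzmg, 472 of Gzmc and 213 of Gzme, together 9.17% of its 30715 UMIs. The next 2 cells of that library, also NK-like, had 1227 and 1188 UMIs of the 5 genes. In the library labelled vector, the highest cell had 1038 of its 26928 UMIs in the 5 genes, and the next 2 cells had 446 and 354. That highest cell of the library labelled vector carried 18 Ncr1 UMIs, 17 of the cycle gene Mki67 and none of Cd3e, and lay in a cycling cluster without a narrower name, so it is not counted among the NK-like cells above. The 10 highest cells were NK-like in 9 cases in the library labelled SPP1 and in 6 in the library labelled vector, with 2 CD8 T-like cells in the second.

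The UMIs of Gzmb and Prf1 were spread over more cells than those of Gzmc to Gzmg, while those of Gzma were about as concentrated. The 3 highest T and NK-like cells held 27.9% of the Gzmb UMIs in the library labelled SPP1 and 38.4% in the library labelled vector. In the second, 418 of 1522 Gzmb UMIs came from 1 CD8 T-like cell. For Prf1 the 3 highest cells held 44.3% and 21.9%, and for Gzma 64.8% and 46.5%. It took 7 cells in each library to reach 50% of the Gzmb UMIs, against 2 and 5 cells for Gzmc to Gzmg, 2 and 4 cells for Gzma, and 4 and 10 cells for Prf1.

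**Figure D2:**
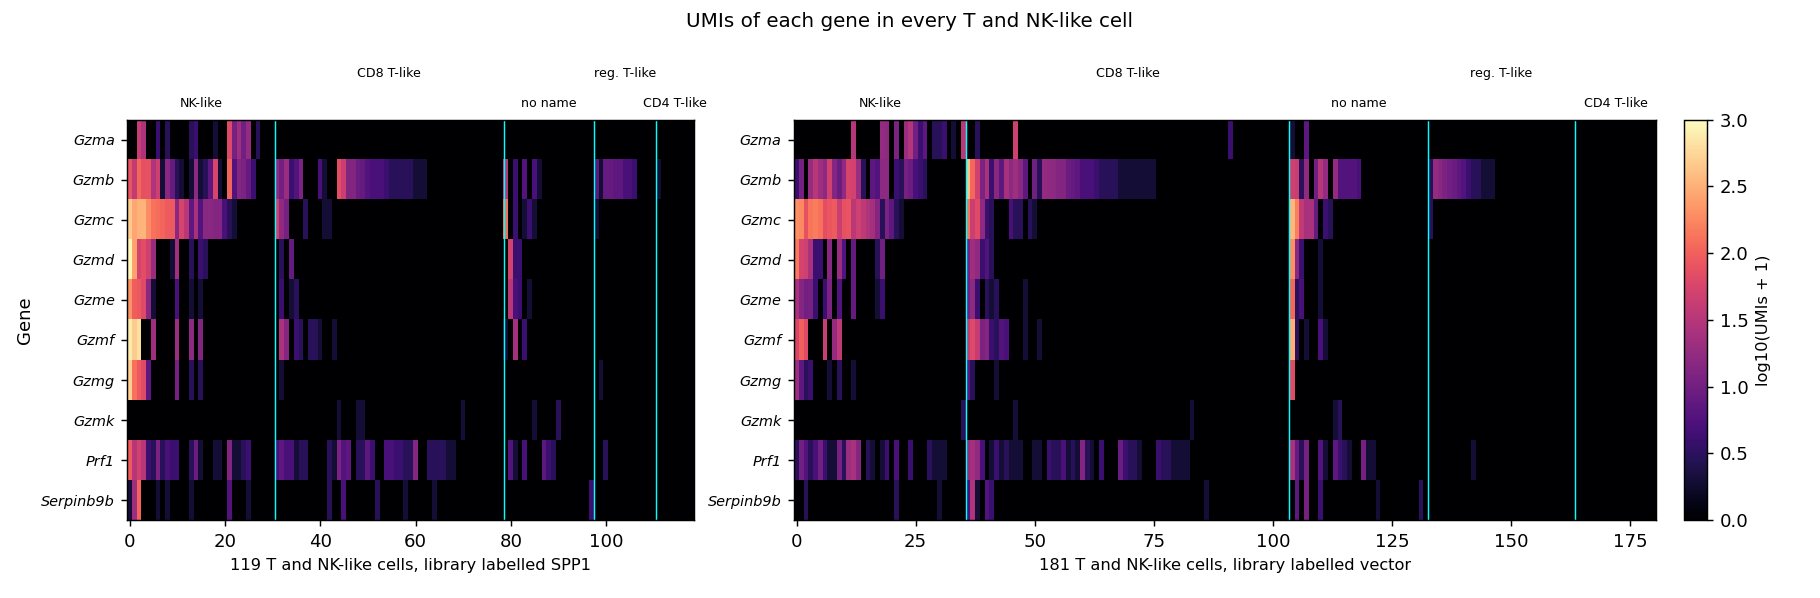
UMIs of each gene (rows, colour on a log10(UMIs + 1) scale) in every T and NK-like cell (columns), 119 of the library labelled SPP1 on the left and 181 of the library labelled vector on the right, grouped by class and ordered within it by the sum of Gzmc to Gzmg. A few NK-like cells at the left edge of each panel carry all 5 of these genes, Gzmb runs on through CD8 T-like and regulatory T-like cells, and Gzmk is nearly empty.

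**Figure D3:**
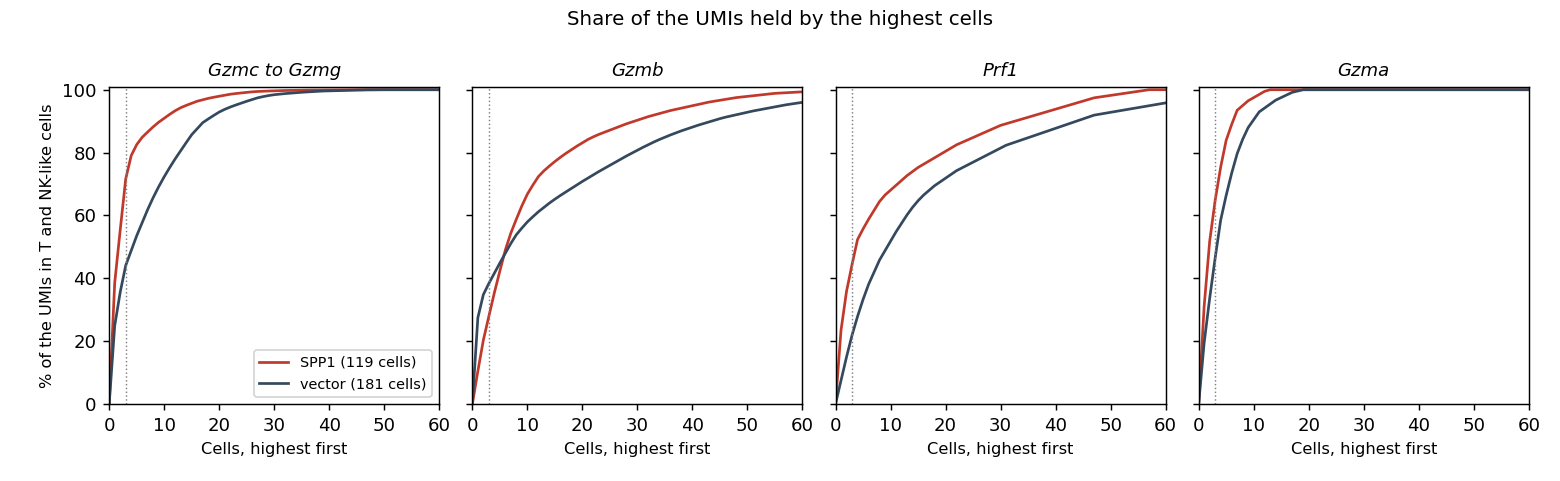
Cumulative percent of the UMIs of Gzmc to Gzmg, Gzmb, Prf1 and Gzma in T and NK-like cells, cells ranked from highest to lowest on the horizontal axis, with a dotted line at 3 cells. The curve of Gzmc to Gzmg reaches 71.6% at 3 cells in the library labelled SPP1 and 44.1% in the library labelled vector.

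Within NK-like cells, Gzmd to Gzmg were nested inside the cells with Gzmc. All 11, 9, 7 and 8 NK-like cells with Gzmd, Gzme, Gzmf and Gzmg in the library labelled SPP1 also had Gzmc, which was present in 23 of 31 cells. The same held for all 12, 11, 6 and 7 such cells of the library labelled vector, where Gzmc was present in 23 of 36. Since Gzmc was in most NK-like cells of both libraries, part of this nesting follows from its share alone. No value at equal depth is given for these pairs with Gzmc. Gzme was found with Gzmd in 9 of 9 cells of the library labelled SPP1, where the product of the 2 shares gives 3.19, and in 10 of 11 of the library labelled vector, where it gives 3.67. In cells thinned to 1000 UMIs the pair stood at 4 of 4 against 1.08 and 5 of 5 against 1.43, so that the excess was present at equal depth too. All 5 genes were found together in 6 and 4 NK-like cells.

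Gzma did not follow this pattern. It shared 9 NK-like cells with Gzmc in the library labelled SPP1, where the shares give 9.65, and 4 in the library labelled vector, where they give 8.94. Thinned to 1000 UMIs, the pair was seen in 3 and 4 cells against 5.88 and 7.23. Gzmb and Prf1 were found together in 21 and 18 NK-like cells and in 20 and 29 CD8 T-like cells. In the CD8 T-like cells their shares give 16.3 and 20.6, and thinned to 1000 UMIs the pair was seen in 7 of 46 and 10 of 64 cells. In NK-like cells Gzmb was in 25 of 31 and 25 of 36 cells and Prf1 in 21 and 24. Much of the overlap there thus follows from their shares alone. Regulatory T-like cells had Gzmb without Prf1 in 8 of the 9 cells with Gzmb in the library labelled SPP1 and in 13 of 14 in the library labelled vector.

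Between the libraries, the NK-like cells of the library labelled SPP1 had more of most of these genes. With at least 20 UMIs over both libraries required, 9 of the 10 genes could be compared and 5 of them were at least 2-fold higher in the library labelled SPP1, with none at least 2-fold lower, against 6.36% of all 2955 genes higher and 6.67% lower by the same rule. Their median log2 ratio was 1.93, beside -0.10 over all genes compared. Gzmg had 794 UMIs, or 4361 CPM, in the library labelled SPP1 and 35 UMIs, or 207 CPM, in the library labelled vector, a log2 ratio of 4.40 (3.91 to 4.93). Gzmf had 1936 and 314 UMIs (2.52, 2.35 to 2.70), Gzme 481 and 90 (2.31, 1.99 to 2.66) and Gzmd 1353 and 331 (1.93, 1.75 to 2.11). Prf1 had 263 and 125 UMIs (0.97, 0.66 to 1.29), Gzmb 700 and 383 (0.77, 0.58 to 0.95) and Gzmc 2341 and 1518 (0.52, 0.43 to 0.62), all under 2-fold. Gzma, at 199 and 182 UMIs, was nearly even at 0.03 (-0.27 to 0.32).

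These ratios rest on levels per cell in a few cells more than on the number of cells with the gene. Detection of Gzmd was 35.5% and 33.3% of NK-like cells, of Gzme 29.0% and 30.6%, of Gzmf 22.6% and 16.7%, and of Gzmg 25.8% and 19.4%. Without the 3 NK-like cells that were highest for the gene in each library, Gzmf stood at -0.039, Gzmd at 0.98, Gzme at 1.47 and Gzmg at 4.26. The sum of Gzmc to Gzmg was 1.49 (1.42 to 1.56) over all NK-like cells, 1.23 without the highest cell and 0.82 without the 3 highest cells of each library, and 0.89 in cells thinned to 1000 UMIs. Serpinb9b had 134 UMIs in the NK-like cells of the library labelled SPP1 and 5 in those of the library labelled vector (4.64, 3.38 to 6.29), but 104 of the 134 lay in 1 cell and 20 in another, and without the 3 highest cells of each library 5 and 0 UMIs remained, too few for a ratio.

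Over all T and NK-like cells, 5 of 9 genes were at least 2-fold higher in the library labelled SPP1, Gzmd, Gzme, Gzmf, Gzmg and Serpinb9b, and none at least 2-fold lower, against 2.72% of 6765 genes higher and 3.84% lower. The count was 3 without the highest cell for each gene in each library, 2 without the 3 highest and 2 in cells thinned to 1000 UMIs, and Gzmf turned to -0.62 without the 3 highest cells. The share of all genes past 2-fold was not computed under these other settings, so these counts have no share beside them. Gzmb was even there, at 1979 CPM in the library labelled SPP1 and 2083 CPM in the library labelled vector (-0.07, -0.19 to 0.04). The sum of Gzmc to Gzmg was 1.28 (1.23 to 1.34), and 0.43 without the 3 highest cells of each library. NK-like cells made up 31 of 119 and 36 of 181 of these cells, and the part of this make-up in the ratios over the class was not tested.

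CD8 T-like cells went the other way. Of the 8 genes with at least 20 UMIs there, 7 were at least 2-fold lower in the library labelled SPP1 and none at least 2-fold higher, against 4.93% of 3571 genes lower and 3.39% higher, with a median of -1.68 beside -0.05 over all genes compared. Gzmb had 254 UMIs, or 1314 CPM, in the library labelled SPP1 and 853 UMIs, or 3646 CPM, in the library labelled vector (-1.47, -1.68 to -1.27). Of the 853, 418 came from 1 cell and 112 from another, so that setting aside the highest cell of each library gave -0.97 and the 3 highest -0.90. The sum of Gzmc to Gzmg had 145 and 554 UMIs (-1.66, -1.93 to -1.39). Of the 13 and 16 cells that carried them, the top 3 accounted for 82.8% and 83.9%. Leaving out those cells gave -1.59, whereas the mean over cells of each cell's CPM gave -0.69.

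Gzma was at 0 UMIs in the 48 CD8 T-like cells of the library labelled SPP1 and at 52 UMIs in the 68 of the library labelled vector, at least 14.3-fold lower with a floor of 3 counts for the class, yet 47 of the 52 were in 1 cell. Prf1, the only one of the 8 not past 2-fold, had 102 and 134 UMIs, or 528 and 573 CPM (-0.12, -0.50 to 0.26). Serpinb9b had 10 and 41 UMIs (-1.76, -2.92 to -0.74), 27 of the 41 in 1 cell. With the highest cell for each gene left out of each library, 4 of the genes stayed at least 2-fold lower, and with the 3 highest left out 2 did. The share of all genes was not computed with cells left out.

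**Figure D4:**
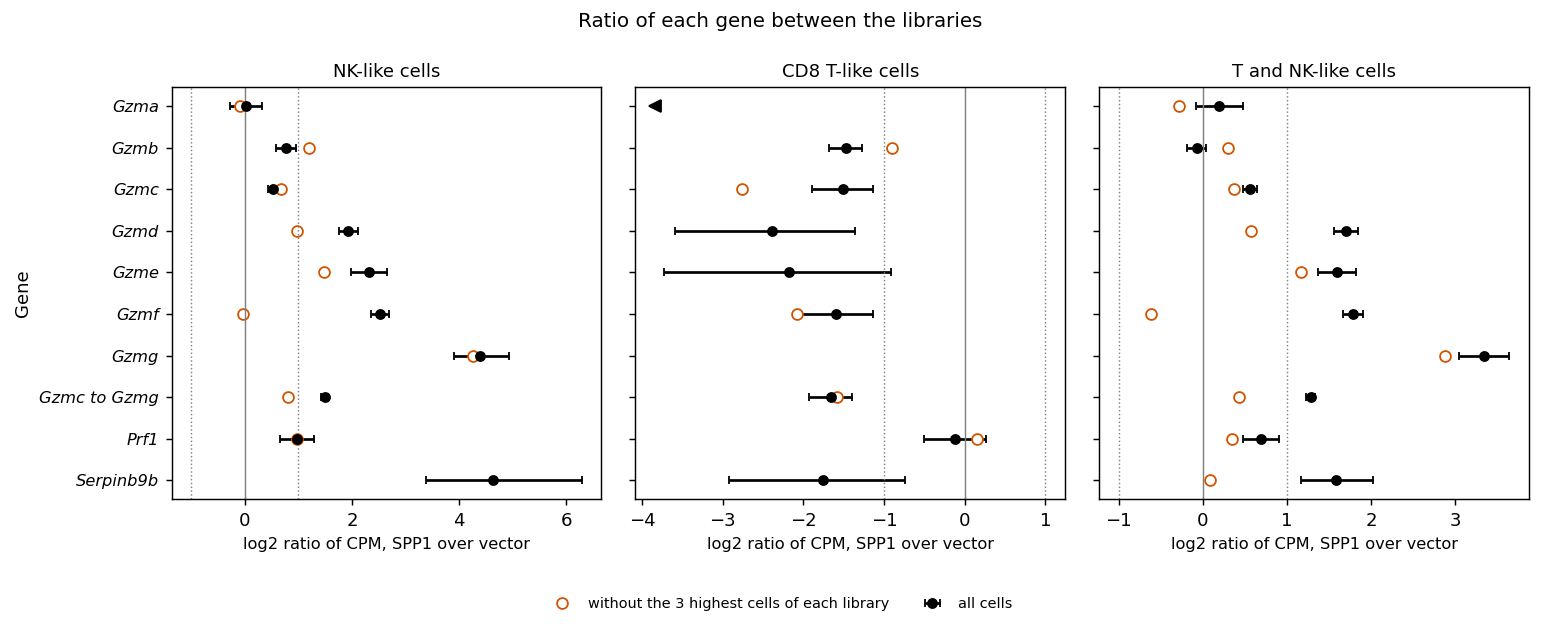
Log2 ratio of CPM, library labelled SPP1 over library labelled vector, for each gene with at least 20 UMIs in NK-like, CD8 T-like and all T and NK-like cells; filled points are all cells with 95% counting intervals, open points leave out the 3 highest cells for the gene in each library and are drawn where at least 20 UMIs remain, the arrow is a bound against a count of 0, and dotted lines mark 2-fold. The filled points lie at or above 0 in NK-like cells and below 0 in CD8 T-like cells, and the open point of Gzmf in NK-like cells lies at -0.039.

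Regulatory T-like cells, identified by Foxp3 with 6 and 24 UMIs and by the other regulatory markers, had Gzmb as their only member with enough UMIs. Gzmb had 44 UMIs in 9 of 13 cells of the library labelled SPP1 and 82 UMIs in 14 of 31 cells of the library labelled vector, or 1377 CPM (1001 to 1849) and 871 CPM (693 to 1082). The log2 ratio was 0.66 (0.10 to 1.21), under the 2-fold rule that 5.73% of 1310 genes passed upward and 11.5% downward in this class. No cell stood out: the highest had 7 UMIs in the library labelled SPP1 and 17 in the library labelled vector. The shares of cells with Gzmb, 69.2% (38.6 to 90.9) and 45.2% (27.3 to 64.0), had overlapping counting intervals, and thinned to 1000 UMIs they were 58.3% and 33.3%.

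The T and NK-like cells without a narrower name fell into 2 clusters, of which the larger, with 11 and 17 cells, was cycling, with Mki67 in 8 and 16 of them. Gzmc to Gzmg had 256 UMIs in the 19 unnamed cells of the library labelled SPP1 and 1326 in the 29 of the library labelled vector (-1.40, -1.60 to -1.21). Of the 1326, 1038 came from the single Ncr1-bearing cell described above. When NK cells were instead taken from T and NK-like cells by an Ncr1, Klrb1c or Klra8 UMI and no Cd3e UMI, a choice made after the data had been seen, that cell joined them and the log2 ratio of Gzmc to Gzmg was 1.39 over 24 and 36 cells. CD8 cells taken by a Cd8a or Cd8b1 UMI with a CD3 UMI gave -0.83 over 58 and 75 cells, with Gzmd at 0.36 and Gzme at 0.58, both on the other side of 0 from the clustered CD8 T-like cells.

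Most UMIs of Serpinb9b lay in the large compartment, while its level was higher in lymphocytes. T and NK-like cells had it at 279 and 93.1 CPM (147 and 68 UMIs), and there 3 cells accounted for 87.8% and 63.2%. Regulatory T-like and CD4 T-like cells had no Serpinb9b UMI in either library. NK-like cells of the library labelled vector stood at 29.5 CPM from 5 UMIs, inside the range of the compartment's clusters given below. The large compartment of 10073 and 10109 cells passed no list of cell type markers and is named here by its size. Its clusters were taken by their summed level of Hmga2, Sox9, Tafa1 and Hoxa9, a list from earlier results of these data. It held 1349 of 1591 Serpinb9b UMIs among kept cells of the library labelled SPP1 and 1498 of 1657 of those of the library labelled vector, in 885 and 917 cells. Serpinb9b was not carried there by a few cells, since the 3 highest held 2.30% and 2.74% and the highest had 11 and 17 UMIs. The level in the compartment was 9.57 and 10.6 CPM (log2 ratio -0.15, -0.25 to -0.04). Macrophage/monocyte-like cells had it at 0.741 and 1.15 CPM.

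Serpinb9b was uneven among the clusters of the compartment. Cluster 10, led by Fbxl7, had 29.8 CPM (25.4 to 34.6) in the library labelled SPP1 and 38.1 CPM (33.9 to 42.7) in the library labelled vector, and cluster 13, also led by Fbxl7, had 28.4 and 30.8 CPM. Cluster 15, led by the interferon-induced gene Ifit3, had 14.4 and 15.6 CPM. The other clusters with over 100 cells in both libraries lay between 4.25 and 8.81 CPM in the library labelled SPP1 and between 5.61 and 8.54 CPM in the library labelled vector. Clusters 3 and 16, both led by Magea9, had 2361 and 463 cells of the library labelled SPP1 and 92 and 34 of the library labelled vector. Their Serpinb9b levels were 8.78 and 11.7 CPM in the library labelled SPP1, and 22.6 and 25.3 CPM in the library labelled vector from 21 UMIs each. Serpinb9, the granzyme B inhibitor next to it on the chromosome, had 308 and 435 UMIs in T and NK-like cells, or 585 and 595 CPM (-0.03, -0.24 to 0.19), and 24.0 and 30.5 CPM in the compartment.

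**Figure D5:**
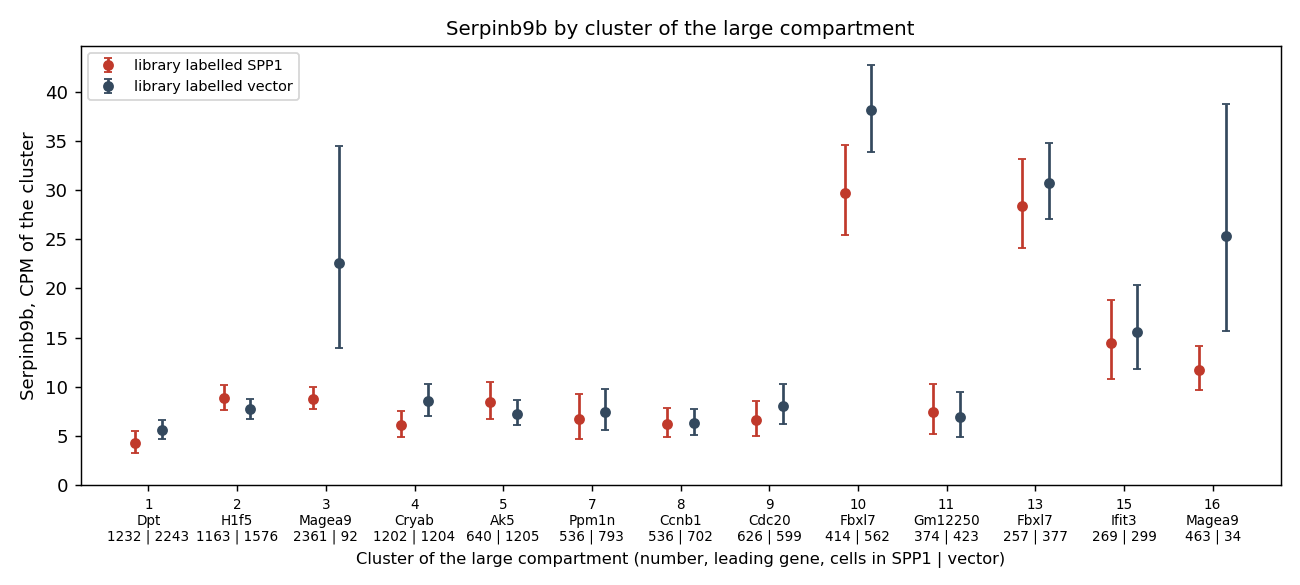
Serpinb9b level (CPM of the cluster, points with 95% counting intervals) in each cluster of the large compartment, in the library labelled SPP1 (red, left) and the library labelled vector (dark blue, right); cluster number, leading gene and cell numbers are under the axis. Clusters 10 and 13 stand above the others in both libraries, at 29.8 and 28.4 CPM in the library labelled SPP1 and 38.1 and 30.8 CPM in the library labelled vector.

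Gzmk, known in mice and humans as a marker of one memory-like group of CD8 T cells, was almost absent from the lymphocytes of these tumours. It had 7 UMIs in T and NK-like cells of each library, 4 and 2 of them in CD8 T-like cells. Its level in T and NK-like cells, 13.3 and 9.58 CPM, was still above the 0.426 and 0.318 CPM of the large compartment, which has far more cells. Endothelial-like cells, with 2 and 4 Gzmk UMIs, stood at 6.74 and 18.9 CPM, higher than T and NK-like cells in the library labelled vector. Of the 76 and 60 Gzmk UMIs among kept cells, 60 and 45 lay in the large compartment, in 57 and 41 cells or 0.566% and 0.406% of them. For scale, 0.387% and 0.435% of the compartment had Gzmb and 1.10% and 0.732% Gzmc, and the part of free RNA in these shares was not tested.

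Outside the T and NK-like cells, Gzmc to Gzmg had 2119 and 278 UMIs in cells set apart as mixed and 332 and 308 UMIs in unnamed cells of low UMI counts. Of the unnamed cells, 3 and 13 had at least 10 UMIs of the 10 genes and held 276 and 179 such UMIs in sum. The mixed cells came from T and NK-like clusters that also carried markers of the large compartment or of macrophages, or from mixed clusters elsewhere. They held 2500 UMIs of the 10 genes in the library labelled SPP1 and 413 in the library labelled vector, which is 18.0% and 4.58% of those in kept cells. The main such cluster had 17 and 20 cells, with 2082 and 236 UMIs of Gzmc to Gzmg. Hmga2, one of the genes by which the compartment and these mixed cells were set apart, was detected in 14 and 15 of them. Ncr1 was detected in 9 and 3 and Cd8a in 2 and 6. Their median depth was 8702 and 6330.5 UMIs, above that of the NK-like cells. With the mixed cells put back by their markers, Gzmc to Gzmg in NK-like cells gave 1.09 over 41 and 42 cells, and in CD8 T-like cells -1.46. In the large compartment itself, Gzmc to Gzmg had 281 and 151 UMIs, or 1.99 and 1.07 CPM, with at most 3 UMIs in a cell of the library labelled SPP1 and 15 in a cell of the library labelled vector.

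Few other genes of the killing pathway were past 2-fold over all T and NK-like cells, where 2.72% of all genes compared were higher and 3.84% lower. Of 12 genes of granule content and release, 11 had enough UMIs and none was past 2-fold in either direction, with a median log2 ratio of 0.08, beside -0.06 over all genes compared. Nkg7, a granule membrane protein, had 818 and 823 UMIs (0.46, 0.32 to 0.61), Srgn, the proteoglycan that binds granzymes in the granule, 689 and 905 (0.08, -0.07 to 0.22), and Cst7, an inhibitor of cathepsins, 188 and 224 (0.22, -0.07 to 0.51). Among 9 transcription factors none was past 2-fold. Id2, needed for NK and effector T cells, had 907 and 1187 UMIs (0.08, -0.04 to 0.21), Tox, a factor of exhausted T cells, 283 and 458 (-0.22, -0.44 to -0.0046), and Eomes, a factor of NK and memory CD8 T cells, 64 and 56 (0.67, 0.13 to 1.21). None of 5 serpins compared, 4 death ligands and cytokines compared, or 9 receptors compared was at least 2-fold higher, and 1 receptor was lower, Cd160 with 6 and 27 UMIs (-1.70, -3.26 to -0.39). Of 4 compared genes of uptake and substrates, Bid was past 2-fold lower with 8 and 24 UMIs (-1.11, -2.48 to 0.09), an interval that includes 0. Ifng, the gene of interferon gamma, had 118 and 142 UMIs (0.21, -0.16 to 0.57) and Fasl 62 and 91 (-0.08, -0.57 to 0.40).

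Within NK-like cells, 6.36% of all genes compared were past 2-fold higher and 6.67% lower. Of the listed genes compared there, 1 of 8 transcription factors, 1 of 4 serpins and 1 of 4 receptors were higher. The same held for 1 of 2 genes of uptake and substrates. Among 8 granule genes 1 was lower, and none of 3 death ligands and cytokines was past 2-fold. Values without the highest cells were not computed for the listed genes. Havcr2, which encodes the inhibitory receptor TIM-3, had 24 and 1 UMIs (4.48, 1.86 to 9.84), and Eomes 54 and 20 (1.33, 0.57 to 2.15). Serpinb6a had 14 and 6 UMIs (1.12, -0.35 to 2.79), an interval that includes 0. Ctsc, the protease that activates granzymes, was lower, with 19 and 39 UMIs (-1.14, -2.01 to -0.32). Within CD8 T-like cells none of the genes compared in the 6 lists was past 2-fold, against 8.32% of 3571 genes in either direction. Those compared were 9 granule genes, 4 serpins, 3 death ligands and cytokines, 7 transcription factors, 7 receptors and 3 genes of uptake and substrates. Numbers this small allow little to be read from a count of none.

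The genes whose level per cell was most like that of the members were named by the lower of the 2 libraries' Pearson correlations, over 119 and 181 T and NK-like cells, among 2342 genes with at least 100 UMIs there. Cells share their depth and their class, so these are descriptions. For the sum of Gzmc to Gzmg the nearest gene was Tyrobp, an adaptor of NK receptors (0.62 and 0.61), followed by Spp1 (0.64 and 0.58), Fcer1g, another such adaptor (0.55 and 0.60), Car2 (0.51 and 0.55) and Itga1, an integrin of tissue-resident lymphocytes (0.46 and 0.47). For Gzmb the nearest was Prf1 (0.51 and 0.48). For Gzma they were Fcer1g (0.54 and 0.46) and Tyrobp (0.52 and 0.45), and for Serpinb9b Gzmf (0.33 and 0.39). No gene reached 0.3 for Gzmk.

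Spp1, the gene named in the labels of the study, was a transcript of the cells richest in these granzymes. All 10 cells highest in Gzmc to Gzmg carried Spp1 in each library, with 1630 and 588 UMIs or 91.0% and 68.3% of the Spp1 of T and NK-like cells. Among the other T and NK-like cells, 31 of 109 and 50 of 171 carried Spp1. The 10 cells were deep, with medians of 6596.5 and 9615 UMIs, above those of the NK-like cells. Hmga2, a gene of the large compartment, was detected in 1 and 3 of them. The part of depth or of free RNA in the Spp1 of these cells was not tested. The 3 highest Gzmc to Gzmg cells of the library labelled SPP1 had 627, 537 and 310 Spp1 UMIs, and those of the library labelled vector 230, 48 and 48. NK-like cells stood at 9265 and 1995 CPM of Spp1, fibroblast-like cells at 2711 and 10505 CPM, macrophage/monocyte-like cells at 2602 and 2303 CPM, and the large compartment at 127 and 133 CPM. In regulatory T-like cells it had 3 UMIs in each library.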

How the data were processed

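Single-cell RNA libraries of 2 tumours, 1 library per group, were analysed. The deposited values are raw counts of UMIs per gene and barcode, as the values show, with no normalization by the authors. Per the submitters' processing notes, Cell Ranger 2.1.1 and GRCm39 were used. The sources used here give neither the library chemistry nor the cell calling. The filter asked for 300 genes, 500 UMIs and no more than 15% mitochondrial UMIs, and doublets predicted by simulation, 331 in the library labelled SPP1 and 297 in the library labelled vector, were removed. Clustering used log counts per 10000 UMIs of 2000 variable genes in 30 principal components, without the members and the genes of the pathway lists (62 genes left out in all). Clusters came from the Leiden method at resolution 1 (leidenalg 0.10.2, Python 3.11.15), and T and NK-like cells again on 15 components. Clusters were named from marker lists; at least 3 markers of a list had to be raised (10 CPM or more and a log2 ratio of 1 or more). The limits on 50% of the list, on the mean log2 ratio (2, or 1 within T and NK-like cells), and on mixed (0.25 of the compartment's level of its marker genes) and low-UMI clusters (0.5 of the median) were set after the data had been seen.

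The members, the gene lists and the markers were chosen with earlier results of these data known. UMIs were summed per class and library and given as CPM with exact Poisson intervals, shares with exact Clopper-Pearson intervals, and log2 ratios, SPP1 over vector, with exact conditional binomial intervals, all at 95%. Nothing was tested across samples, since each group has 1 library and cells are not replicates. A gene was called at a ratio of at least 2-fold with at least 20 UMIs. All 10 members are named, with up to 4 genes of each list, mostly those with the most UMIs; Eomes, Cd160 and the genes given for NK-like cells were taken after their values were seen, and 1 gene of the lists is not reported here. Likeness was ranked by the same rule for Gzma and Gzmk, which the rule had not listed. Detection was also read in cells thinned to 1000 UMIs, leaving out 8 cells in each library of the T and NK-like class. A count of 0 is bounded by 3 counts. The scripts were tested on simulated data. Other settings were a clustering on all genes, doublets kept, a stricter filter, other resolutions, the highest cells left out, other scalings, thinning, the mixed cells put back and classes taken by markers.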

Additional observations from a re-analysis of the deposited data

Results flagged for a closer look

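Gzmc to Gzmg moved in opposite directions in the NK-like and CD8 T-like cells of the same 2 libraries, with a log2 ratio, SPP1 over vector, of 1.49 in NK-like cells and -1.66 in CD8 T-like cells. The same opposition was seen for Gzmb (0.77 and -1.47), Gzmc (0.52 and -1.51), Gzmd (1.93 and -2.39), Gzme (2.31 and -2.18), Gzmf (2.52 and -1.60) and Serpinb9b (4.64 and -1.76). Some of these values turned with the setting or rest on 1 cell. Gzmf in NK-like cells came to -0.039 once the 3 top cells per library were left out, Gzmd and Gzme were 0.36 and 0.58 in CD8 T-like cells taken by markers, and 104 of the 134 Serpinb9b UMIs of NK-like cells in the library labelled SPP1 lay in 1 cell. The difference between the classes was not tested, since each group has 1 library.

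Removed predicted doublets also held these transcripts. Gzmb stood at 11.1 CPM (82 UMIs in 9 of 331 doublets) in the library labelled SPP1 and at 4.85 CPM (30 UMIs in 9 of 297) in the library labelled vector. Gzmf stood at 3.79 CPM (28 UMIs) and 0.485 CPM (3 UMIs). Gzmb and Gzmf were picked by a rule that looked only for intervals higher in the library labelled SPP1. Gzmc was lower there, at 1.35 and 3.40 CPM (10 and 21 UMIs), with overlapping intervals. Prf1 (18 and 12 UMIs) and Serpinb9b (66 and 53 UMIs) also had overlapping intervals. These barcodes enter no comparison above.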

How the results depend on the processing

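The sum of Gzmc to Gzmg in NK-like cells, at a log2 ratio of 1.49, kept its direction under all settings run. It was 1.38 with all genes in the clustering, 1.35 with doublets kept, 1.19 as a mean over cells, 1.59 when scaled by the median ratio, 0.89 when thinned, 1.23 and 0.82 without the 1 and 3 highest cells, 1.09 with the mixed cells put back, and 1.64 or 1.39 with NK cells taken by markers and no CD3 or no Cd3e UMI. In CD8 T-like cells the sum, at -1.66, was -0.69 as a mean over cells, -0.79 when thinned and -0.83 by markers, and stayed within its interval otherwise. In all T and NK-like cells, at 1.28, it was 1.35 when scaled, 0.75 when thinned, 1.03 and 0.43 without the 1 and 3 highest cells, and 1.42 with the mixed cells put back. The number of members at least 2-fold higher in T and NK-like cells, 5, was 2 when thinned, 3 without the highest cell and 2 without the 3 highest. In NK-like cells, also 5, it was 3 when thinned and 3 without the 3 highest. The number at least 2-fold lower in CD8 T-like cells, 7, was 1 as a mean over cells, 2 when thinned, 4 without the highest cell and 2 without the 3 highest. Thinning and leaving out cells also leave fewer members with 20 UMIs, and the share of all genes past 2-fold was not computed under these settings.

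A change of direction was counted only where the main ratio was at least 2-fold. By that rule single members turned round in 6 cases: Gzmf without the 3 highest cells (-0.039 in NK-like and -0.62 in T and NK-like cells), and Gzmd (0.36) and Gzme (0.58) in CD8 cells taken by markers, the same under both marker rules. The cause was not tested. Classes by markers, the mixed cells put back and the highest cell left out were chosen after seeing the data. With a minimum of 100 UMIs, the share of genes past 2-fold in either direction was 1.20% in T and NK-like cells (6.56% with 20 UMIs), 7.16% in NK-like (13%), 1.42% in CD8 T-like (8.32%) and 3.21% in regulatory T-like cells (17.3%). For the main results, which are the sums of Gzmc to Gzmg and the counts of members, 46 values stayed within their limits and 28 moved. Of the other values, 386 stayed within their limits and 169 moved. Among the log2 ratios in NK-like cells, 65 stayed, 63 moved and 1 turned round. No paired analysis was possible because each group has 1 library. Depth and the 31 to 68 cells of the main classes limit all values, and without replicates spread between animals is unknown.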

Other observations

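Ctsg, which encodes cathepsin G and is the neighbour of Gzme on chromosome 14, was seen in the same NK-like cells as Gzmc to Gzmg, a feature singled out after its values were seen. In the library labelled SPP1 it had 107 UMIs in 6 of 31 NK-like cells, and the 3 highest cells held 97.2% of them. All 6 also carried Gzmc, Gzmd, Gzme, Gzmf and Gzmg, where the product of the shares gives from 1.35 cells for Gzmf to 4.45 for Gzmc. The overlap was not particular to these genes, since all 6 also carried Gzmb and Prf1, where the shares give 4.84 and 4.06. No value at equal depth is given for Ctsg. In the library labelled vector it had no UMI in any of the 13946 kept cells. Gzmn, which lies between Gzmg and Gzmf, had 4 UMIs in 2 NK-like cells of the library labelled SPP1 and none in the library labelled vector. Within macrophage/monocyte-like cells Gzmb had 26 UMIs in 8 of 639 cells of the library labelled SPP1 and 4 UMIs in 4 of 832 cells of the library labelled vector, and the highest of these cells had 15. In the library labelled SPP1, 2 macrophage/monocyte-like cells with at least 10 UMIs of the members held 30 of the 76 member UMIs of the class, and both also carried a T or NK gene, whose part in the difference was not tested.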
